A study of Mus musculus with 10 samples.

Results

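Golgi glycosyltransferases and sulfotransferases build the sugar chains of mucins, membrane proteins and glycolipids, and their genes were followed here across intestinal epithelium from stem cell to secretory and absorptive daughter cells. The genes were chosen by symbol, from the families Galnt, B3gnt, B4galt, B3galt, St3gal, St6gal (with St6galnac), St8sia, Fut, Gcnt, Mgat and Chst. Of 12393 genes read on Affymetrix mouse 430A 2.0 arrays, 73 belonged to these families. Where several probe sets measured a gene, the one with the greatest average signal across the 10 arrays stood for it.

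Total RNA of small intestinal epithelium from C57BL/6 mice was hybridised to 10 arrays, 2 for each of 5 groups. Stem cells (ISC) came from Lgr5-eGFP-Cre mice and were sorted by their green fluorescent protein, which the Lgr5 locus drives. Secretory progenitors of the crypt (Sec-Pro) were enriched in 2 ways, by deletion of Rbpj (Rbpj Sec-Pro) or by treatment with dibenzazepine, a Notch inhibitor (DBZ Sec-Pro). Enterocyte progenitors (Ent-Pro) were crypt cells, and mature enterocytes (ENT) villus cells, of Atoh1-/- mice, which the labels describe as lacking all secretory cells. The recorded preparation used 5 mM EDTA, with 50 min for crypts and 25 min for villi. Preparation time and position thus cannot be told apart between ENT and Ent-Pro. Age, dose and time of treatment, and the promoter that drove either deletion, are not given in the sources used here. ISC were the only group described as sorted, so that sorting and cell population cannot be told apart in comparisons with ISC. Sec-Pro came only after Rbpj deletion or DBZ, and Ent-Pro only from Atoh1-/- mice. Cell population thus cannot be told apart from deletion or treatment between Sec-Pro and Ent-Pro, or between either and ISC. Whether the 2 arrays per group represent different mice is not given, so that a p-value reflects variation among these arrays, possibly technical.

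A mucin-type O-glycan starts when a polypeptide GalNAc transferase attaches N-acetylgalactosamine to a serine or threonine. Core enzymes then branch it, galactosyl- and N-acetylglucosaminyltransferases lengthen the branches, and sialic acid, fucose or sulfate caps them. N-glycans are instead trimmed by other enzymes and branched by the Mgat enzymes. In the gut, goblet cells secrete heavily O-glycosylated and sulfated mucins into the lumen, while enterocytes carry membrane mucins and a glycocalyx on their brush border.

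The labels were first read against marker genes. Atoh1 read 5.75 and 5.78 on the log2 scale in Ent-Pro and 4.97 and 5.18 in ENT, against 10.40 to 11.85 in Sec-Pro. Rbpj itself read 6.74 and 6.62 after its deletion and 8.26 and 8.31 after DBZ. Goblet markers averaged 11.97 to 12.87 in Sec-Pro, 9.85 and 10.18 in ISC and 5.94 to 6.38 in Ent-Pro and ENT, and stem cell markers were highest in ISC (10.94 and 10.69). Paneth cell markers, 4 genes of a list of 8, averaged 12.86 to 13.83 in Sec-Pro, 11.15 and 11.85 in ISC, 8.81 and 8.99 in Ent-Pro, and 7.17 and 9.38 on the 2 ENT arrays. The 4 Paneth genes were uneven in the Atoh1-/- groups, which the label describes as lacking secretory cells. Lyz1 read 10.31 and 11.15 in Ent-Pro and 8.22 and 11.10 in ENT. Mmp7 read 10.45 and 10.13 in Ent-Pro and 6.69 and 9.74 in ENT, and Itln1 8.75 and 9.03, and 8.36 and 11.55. Pla2g2a read 5.74 and 5.66 in Ent-Pro and 5.40 and 5.14 in ENT, against 8.98 to 11.95 in Sec-Pro. Whether secretory cells remained in these groups was not tested. Enteroendocrine markers, 11 genes, averaged 6.07 and 6.08 in Ent-Pro and 5.63 and 5.55 in ENT. Among them, Chgb read 5.87 and 7.03 in ENT, against 9.15 and 8.98 in Ent-Pro. Sct went the other way, with 8.51 and 8.45 in ENT against 7.57 and 7.49 in Ent-Pro. The 2 ENT arrays stood apart from each other in Lyz1, Mmp7, Itln1 and Chgb, replicate 2 being higher, but not in Pla2g2a. In Cck, also enteroendocrine, replicate 1 was the higher, and the enteroendocrine mean did not separate these arrays. Enterocyte markers averaged 13.42 and 13.34 in Rbpj and 13.14 and 12.65 in DBZ Sec-Pro, close to 12.98 and 12.49 in Ent-Pro, so transcripts of absorptive cells were also high in Sec-Pro. Leukocyte markers, 16 genes of a list of 17, averaged 5.63 and 5.81 in ISC, 8.48 and 6.57 in the Rbpj group, 7.20 and 8.01 in the DBZ group, 6.40 and 6.29 in Ent-Pro and 7.62 and 7.65 in ENT. Of these 16, 7 exceeded Ent-Pro in Sec-Pro (9.27% of all genes), 11 exceeded ISC in Sec-Pro (18.0%) and 7 exceeded Ent-Pro in ENT (18.5%). In ISC, 3 of them lay near background. Tuft cell markers stood at 6.16 on Rbpj replicate 1 but 7.79 to 8.06 on the other Sec-Pro arrays, and at 8.29 and 7.93 in ENT. The 3 probe sets of the hybridisation control BioB read 9.73 to 10.51 in Rbpj Sec-Pro, 7.92 to 8.88 in ISC, 6.90 to 7.48 in Ent-Pro, 5.84 to 6.44 in ENT, and 7.15 to 7.82 and 5.91 to 6.43 on the 2 DBZ arrays. The part of these differences in the results below was not tested. In bulk RNA, fewer cells of a type and less RNA per cell cannot be told apart.

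Among the 73 enzyme genes, 50 lay above the background bound in every group, 14 lay near background in some groups and 9 in all 5. A gene was taken to be near background in a group when both arrays read within 1 (log2) of the absent control TrpnX. The 9 were B3galt1, B3galt2, B3gnt4, B3gnt9, Chst5, Chst10, Fut9, St6galnac1 and St8sia1. St6galnac1, which makes the sialyl-Tn epitope of mucins, read 3.85 to 4.33 on all 10 arrays. With each gene tested for any difference among the 5 groups (limma's moderated F test, adjusted p under 0.05), 49 of 73 passed, or 67.1%, against 66.1% of all genes, so as a class these genes varied about as often as any other.

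Counts in 1 direction were less even. Between Sec-Pro and Ent-Pro, 13 enzyme genes were higher (17.8%, against 9.27% of all genes) and 5 lower (6.85%, against 14.7%). Between Sec-Pro and ISC, 24 were higher (32.9%, against 18.0% of all genes) and 11 lower (15.1%, against 27.2%). Ent-Pro had 12 higher than ISC (16.4%, against 12.1%) and 4 lower (5.48%, against 13.5%). ENT had 17 higher than Ent-Pro (23.3%, against 18.5%) and 4 lower (5.48%, against 20.2%). Set against Ent-Pro, Rbpj Sec-Pro alone had 13 higher (9.37% of all genes) and 10 lower (16.9%), and DBZ Sec-Pro alone 12 higher (8.84%) and 1 lower (9.77%). Set against ISC, Rbpj Sec-Pro alone had 22 higher (17.7% of all genes) and 13 lower (29.4%), and DBZ Sec-Pro alone 23 higher (15.9%) and 5 lower (20.3%). Over the first 4 comparisons, the median log2 change of the 73 was 0.01, 0.01, 0.05 and 0.15 in the order given, against -0.09, -0.11, -0.02 and 0.02 over all genes. The first 2 comparisons share the Sec-Pro arrays, and comparisons with ISC share the ISC arrays. In all, 45 of the genes were called in at least 1 comparison and 28 in none. Besides those near background everywhere, the uncalled were B3galt4, B3galt5, B3gnt8, B4galt2, B4galt6, Chst14, Fut1, Fut2, Fut4, Fut7, Galnt2, Gcnt1, Mgat4d, Mgat5, St6gal1, St8sia2, St8sia3, St8sia4 and St8sia5.

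**Figure D1:**
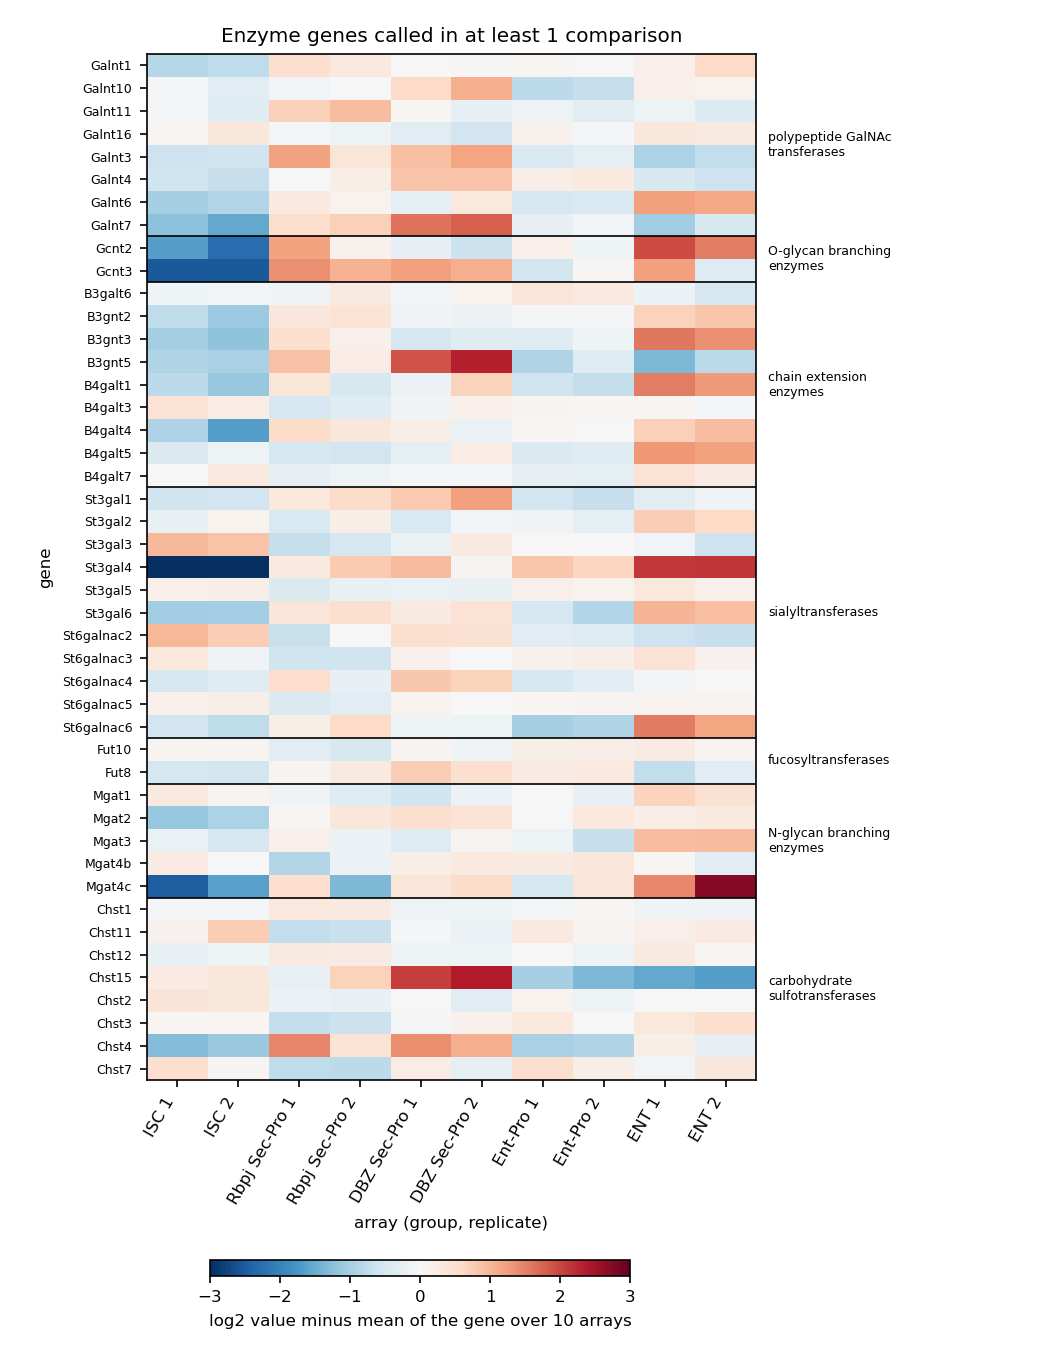
Rows are the 45 enzyme genes called in at least 1 of 5 comparisons, grouped by role, and columns are the 10 arrays. Colour gives the log2 value minus the gene's mean over the arrays and saturates at 3 in either direction; St3gal4, Gcnt3 and Galnt7 are lowest in ISC, and Chst15 and B3gnt5 are highest in DBZ Sec-Pro.

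Among polypeptide GalNAc transferases, those called were mostly higher in secretory progenitors. Of 9 measured, 5 exceeded Ent-Pro in Sec-Pro and 0 were lower by limma (9.27% and 14.7% of all genes). At an unadjusted p under 0.05, 2 were lower, and the median log2 difference was 0.59. Against ISC, 7 were higher and 1 lower (18.0% and 27.2% of all genes, median 1.01). Galnt7, which prefers peptides that already carry a GalNAc, read 9.42 and 9.13 in ISC, 11.18 and 11.38 in the Rbpj group, 12.28 and 12.45 in the DBZ group, 10.41 and 10.57 in Ent-Pro and 9.63 and 10.17 in ENT. All 4 Sec-Pro arrays lay above all 6 others. Against ISC it was 5.84-fold higher (log2 fold change 2.55, SE 0.17, adjusted p = 1.6e-05) and against Ent-Pro 2.52-fold higher (1.33, SE 0.17, adjusted p = 0.0011). Its 2 other probe sets gave 1.83 and 1.52 for Sec-Pro against Ent-Pro. It also rose from ISC to Ent-Pro (1.21, adjusted p = 0.0024). A fall from Ent-Pro to ENT (-0.59, adjusted p = 0.039) was not shared by a second probe set (0.12) and was lost without Ent-Pro replicate 1 (-0.67, adjusted p = 0.085) or 2 (-0.51, adjusted p = 0.19), ENT replicate 1 (-0.32, adjusted p = 0.26) or either DBZ array (0.052).

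Galnt3, an enzyme known for protecting the hormone Fgf23 from cleavage, followed a narrower course. It read 9.21 and 9.24 in ISC, 11.05 and 10.21 in the Rbpj group, 10.73 and 11.01 in the DBZ group, 9.39 and 9.55 in Ent-Pro and 8.88 and 9.09 in ENT. All Sec-Pro arrays exceeded all others, with a 2.43-fold difference from Ent-Pro (adjusted p = 0.0041) and 2.88-fold from ISC (adjusted p = 0.00048). Probe sets disagreed: a dimmer one gave 1.14 and the third -0.20 against Ent-Pro, and with their mean the call against ISC was lost (0.48, adjusted p = 0.10).

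Galnt10, also a transferase of preglycosylated peptides, was 2.20-fold higher in Sec-Pro than in Ent-Pro (1.14, SE 0.15, adjusted p = 0.0016). Its values were 8.76 and 8.86 in Rbpj and 9.41 and 9.94 in DBZ Sec-Pro, against 8.05 and 8.16 in Ent-Pro, 8.99 and 8.96 in ENT and 8.78 and 8.53 in ISC. DBZ arrays thus lay above all others, whereas Rbpj arrays overlapped those of ISC. Galnt6 read 7.37, 7.19, 6.80 and 7.39 in Sec-Pro against 6.55 and 6.62 in Ent-Pro, a 1.52-fold difference (adjusted p = 0.027) whose call was lost without Ent-Pro replicate 1 (0.57, adjusted p = 0.16) or 2 (0.64, adjusted p = 0.12). From Ent-Pro to ENT, Galnt6 rose 3.22-fold (8.31 and 8.24 in ENT, adjusted p = 0.00018) and Galnt10 1.83-fold (adjusted p = 0.0043). Galnt11, which modifies receptors of the low-density lipoprotein family, read 8.38 and 8.58 in Rbpj Sec-Pro but 7.71 and 7.42 in DBZ Sec-Pro, the latter overlapping 7.50 and 7.35 in Ent-Pro. Its call against Ent-Pro (0.59) was lost without Ent-Pro replicate 1 (0.67, adjusted p = 0.087) or 2 (0.52, adjusted p = 0.15) or DBZ replicate 1 (0.52, adjusted p = 0.051), and its call against ISC (0.58) without ISC replicate 2 (0.42, adjusted p = 0.11). That of Galnt10 against ISC (0.59) was lost without the same array (0.46, adjusted p = 0.12).

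The widely expressed initiator Galnt1 and the follow-up enzyme Galnt4 rose in both branches. Galnt1 was 2.01-fold higher in Sec-Pro (adjusted p = 0.00036) and 1.78-fold higher in Ent-Pro (adjusted p = 0.0045) than in ISC, where it read 9.32 and 9.41. Galnt4 read 10.74 and 10.64 in ISC, 11.36 to 12.20 in Sec-Pro, 11.54 and 11.64 in Ent-Pro and 10.85 and 10.71 in ENT. It lay 2.19-fold above ISC in Sec-Pro and 1.87-fold in Ent-Pro, and fell by 0.81 from Ent-Pro to ENT (adjusted p = 0.00081), back to the range of ISC. Galnt4 lies within the protein-coding gene Poc1b in the RefSeq annotation, and its signal is uncertain where probes overlap both. Of its 2 other probe sets, the brighter (mean 8.27) gave 1.28 and the dimmer (mean 6.05) -0.05 between Sec-Pro and ISC, and they gave -0.07 and 0.03 between ENT and Ent-Pro. With the mean of its probe sets the fall to ENT did not pass (-0.29, adjusted p = 0.05). Galnt16 fell by 0.48 from ISC to Sec-Pro, a call lost without ISC replicate 2 (-0.34, adjusted p = 0.14). Galnt2 passed in none of the 5 comparisons.

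Among 3 O-glycan branching enzymes, Gcnt2 and Gcnt3 were higher than in ISC in both progenitor groups (18.0% of all genes in Sec-Pro and 12.1% in Ent-Pro). The median log2 difference of the 3 was 2.09 in Sec-Pro and 1.98 in Ent-Pro, which are the values of Gcnt2. Gcnt3, which makes core 2 and core 4 branches of mucin glycans, read 5.92 and 5.92 in ISC, 9.82 and 9.49 in the Rbpj group, 9.68 and 9.54 in the DBZ group, 7.91 and 8.48 in Ent-Pro and 9.67 and 8.07 in ENT. Sec-Pro and both Atoh1-/- groups lay clear of ISC, and ENT replicate 1 reached the Sec-Pro range. The gene was 13.1-fold higher in Sec-Pro than in ISC (3.71, SE 0.37, adjusted p = 9.2e-05) and 4.84-fold higher in Ent-Pro (2.27, adjusted p = 0.0052). Its difference between Sec-Pro and Ent-Pro (1.44, SE 0.37, adjusted p = 0.025) passed, but was lost without Ent-Pro replicate 1 (1.15, adjusted p = 0.19) or 2 (1.73, adjusted p = 0.073) and without DBZ replicate 1 (1.40, adjusted p = 0.059) or 2 (1.47, adjusted p = 0.054).

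Gcnt2, the I-branching enzyme of poly-N-acetyllactosamine chains, rose along the absorptive branch. It read 5.96 and 5.32 in ISC, 7.76 and 7.48 in Ent-Pro and 9.58 and 9.15 in ENT, with no overlap between steps. Each step passed (1.98, adjusted p = 0.0037, and 1.74, adjusted p = 0.0040). Sec-Pro values were 8.81 and 7.75 in Rbpj and 7.36 and 6.97 in DBZ, around those of Ent-Pro. The 6 other probe sets of Gcnt2 were dimmer, 2 of which also rose from Ent-Pro to ENT (1.32 and 1.29), and with the mean of all 7 the changes from ISC were lost (0.37, adjusted p = 0.065 in Sec-Pro, and 0.31, adjusted p = 0.23 in Ent-Pro). Gcnt1, the core 2 enzyme of leukocytes and many other cells, passed in none of the 5 comparisons and read 4.31 to 5.09.

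**Figure D2:**
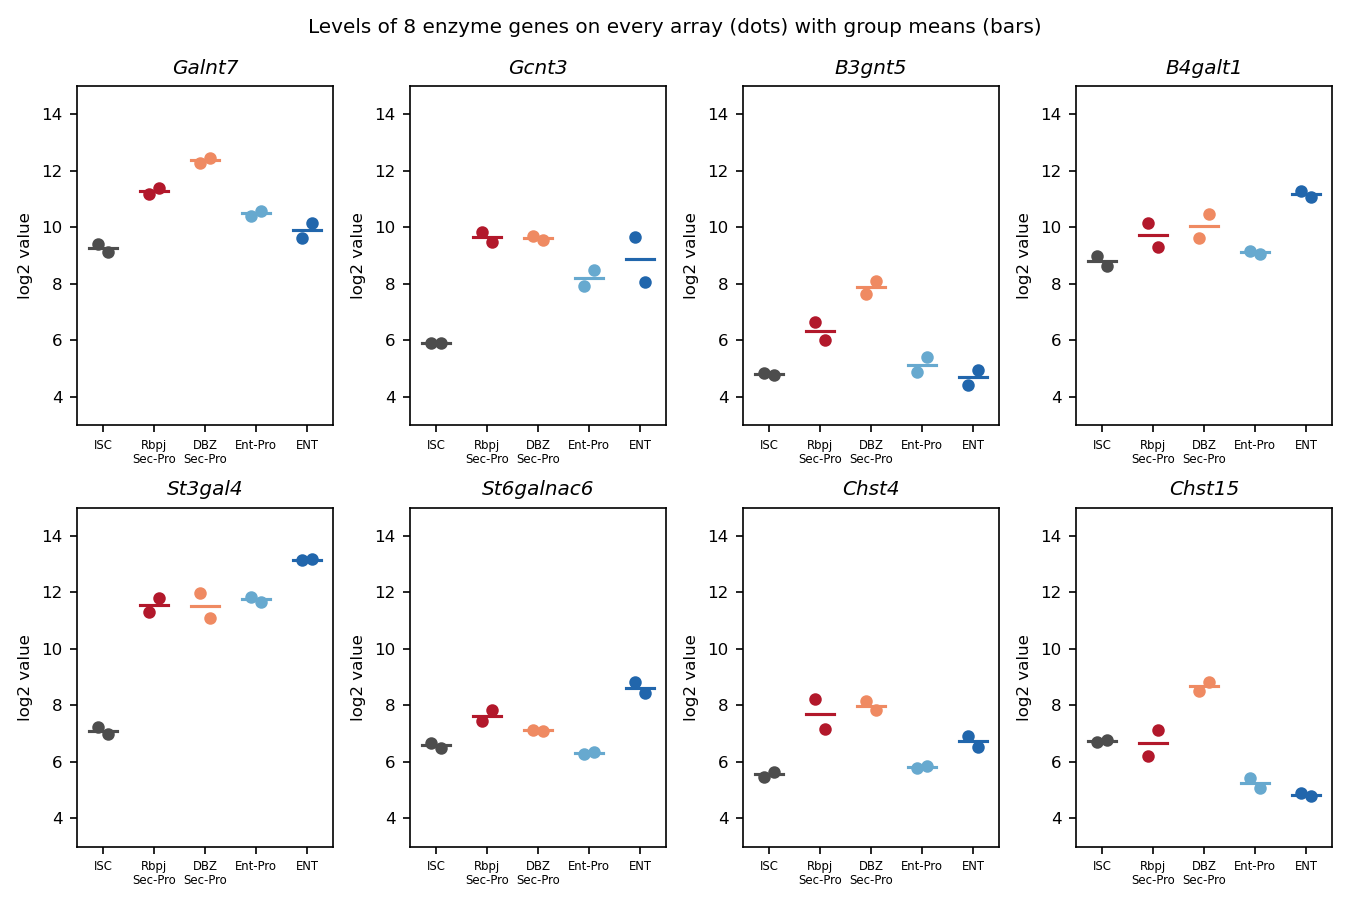
Each panel gives the log2 value of 1 gene (vertical axis) on the 2 arrays of each group (dots) with the group mean (bar). Galnt7, B3gnt5 and Chst4 are highest in both Sec-Pro groups, Chst15 is highest in DBZ Sec-Pro, Gcnt3 and St3gal4 rise from ISC in all other groups, and B4galt1 and St6galnac6 are highest in ENT on average.

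Chain extension was read from 18 galactosyl- and N-acetylglucosaminyltransferases. Between ENT and Ent-Pro 7 passed, 6 up and 1 down (18.5% and 20.2% of all genes). Between the crypt branches 1 passed, higher in Sec-Pro (9.27% of all genes were higher and 14.7% lower). The 1 between the crypt branches was B3gnt5, which starts lacto-series glycolipids. It read 6.65 and 6.00 in Rbpj and 7.65 and 8.10 in DBZ Sec-Pro, against 4.88 and 5.41 in Ent-Pro, 4.86 and 4.79 in ISC and 4.43 and 4.97 in ENT. All 4 Sec-Pro arrays stood above the other 6, by 3.89-fold over Ent-Pro (1.96, SE 0.24, adjusted p = 0.0011) and 4.85-fold over ISC (adjusted p = 0.00013). Its second probe set was dim (mean 4.09) and differed by 0.06 from Ent-Pro.

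B4galt1, the main galactosyltransferase of N-acetyllactosamine, read 9.18 and 9.07 in Ent-Pro and 11.30 and 11.06 in ENT, a 4.17-fold rise (2.06, SE 0.32, adjusted p = 0.0011). Sec-Pro arrays were spread between these, at 10.15, 9.30, 9.61 and 10.47, and ISC read 8.98 and 8.64. Its call for Sec-Pro against ISC (1.07) was lost without ISC replicate 2 (0.90, adjusted p = 0.11). B3gnt3, which extends core 1 O-glycans, rose 3.33-fold from Ent-Pro to ENT, from 7.42 and 7.68 to 9.39 and 9.18 (adjusted p = 0.00011). B4galt5, a lactosylceramide synthase, read 4.62 and 4.68 in Ent-Pro and 6.35 and 6.26 in ENT (3.14-fold, adjusted p = 0.00015), with 4.51 to 5.27 on all other arrays.

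B3gnt2, the main poly-N-acetyllactosamine synthase, rose along the absorptive branch, with 8.27 and 7.94 in ISC, 9.01 and 8.97 in Ent-Pro and 9.72 and 9.88 in ENT (0.88, adjusted p = 0.0021, then 0.81, adjusted p = 0.0016), with 8.86 to 9.44 in Sec-Pro. Its other probe set differed by -0.18 from ISC to Ent-Pro and by 1.35 from Ent-Pro to ENT, and with the mean of both the first call was lost (0.35, adjusted p = 0.14). B4galt4 was 2.49-fold higher in Ent-Pro than in ISC (adjusted p = 0.0038) and 2.84-fold higher in Sec-Pro (adjusted p = 0.00040). The calls of B4galt4 (0.79) between ENT and Ent-Pro were lost without any 1 of the 4 arrays of these groups (0.68 to 0.90, adjusted p = 0.055 to 0.13). B3galt6 and B4galt7, which build the linker of proteoglycans, moved oppositely from Ent-Pro to ENT. B3galt6 fell by 0.66 (adjusted p = 0.010, lost without Ent-Pro replicate 1 at 0.063 or ENT replicate 2 at 0.077), while B4galt7 rose 1.52-fold (adjusted p = 0.0058). B4galt7 was also lower in Ent-Pro than in ISC (-0.41, adjusted p = 0.048), a call lost without ISC replicate 2 (-0.28, adjusted p = 0.25), either Ent-Pro array (0.17 and 0.19), either DBZ array (0.068) or either ENT array (0.054). B3gnt3 rose 1.80-fold from ISC to Ent-Pro, a call lost without ISC replicate 2 (0.76, adjusted p = 0.053) or Ent-Pro replicate 2 (0.72, adjusted p = 0.059). B4galt3 fell by 0.52 from ISC to Sec-Pro (lost without ISC replicate 1, -0.42, adjusted p = 0.064).

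**Figure D3:**
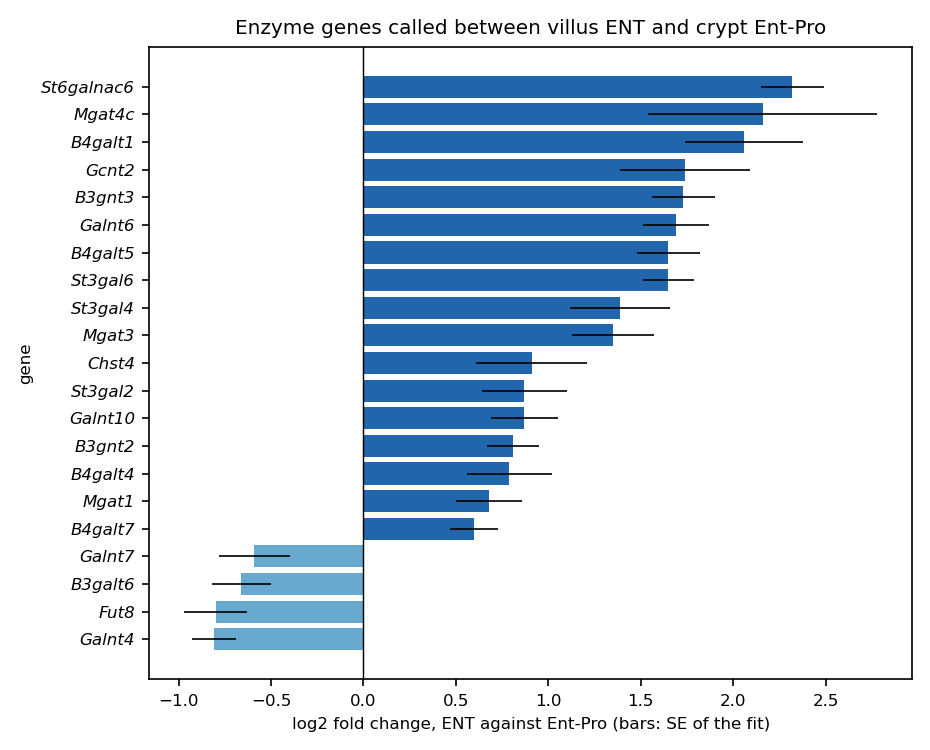
Bars give the log2 fold change of the 21 enzyme genes called between villus ENT and crypt Ent-Pro, with the SE of the fit. St6galnac6, Mgat4c and B4galt1 rose by more than 2, and Galnt7, B3galt6, Fut8 and Galnt4 fell.

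Sialyltransferases held the largest change of all 73 genes. St3gal4, which adds α2,3-linked sialic acid to galactose of N-acetyllactosamine, read 7.22 and 6.97 in ISC, 11.30 and 11.79 in the Rbpj group, 11.96 and 11.10 in the DBZ group, 11.85 and 11.67 in Ent-Pro and 13.13 and 13.17 in ENT. Both ISC arrays lay far below the other 8. St3gal4 was 21.8-fold higher in Sec-Pro (4.44, SE 0.23, adjusted p = 7.3e-06) and 25.4-fold higher in Ent-Pro (4.67, SE 0.27, adjusted p = 3.4e-05) than in ISC, and rose again 2.62-fold from Ent-Pro to ENT (adjusted p = 0.0033). Between the crypt branches St3gal4 did not pass.

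St3gal6, of the same linkage, was higher in Sec-Pro and in ENT than in Ent-Pro. It read 8.71 and 8.74 in ISC, 10.03 to 10.25 in Sec-Pro, 9.22 and 8.89 in Ent-Pro and 10.77 and 10.65 in ENT. Sec-Pro exceeded Ent-Pro 2.14-fold (adjusted p = 0.00063; second probe set 0.92) and ENT exceeded Ent-Pro 3.14-fold (adjusted p = 7.0e-05; second probe set 1.88). St3gal6 overlaps the protein-coding gene Dcbld2 in the RefSeq annotation. St6galnac6, which adds α2,6-linked sialic acid to glycolipids, was likewise lowest in crypt groups outside Sec-Pro: 6.27 and 6.35 in Ent-Pro, 6.68 and 6.50 in ISC, 7.14 and 7.11 in DBZ Sec-Pro, 7.44 and 7.83 in the Rbpj group and 8.82 and 8.44 in ENT, with no overlap between neighbours in this order. It was 2.10-fold higher in Sec-Pro (adjusted p = 0.0018) and 4.99-fold higher in ENT (2.32, SE 0.17, adjusted p = 4.9e-05) than in Ent-Pro.

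St3gal1, which sialylates core 1 O-glycans, lay near background in ISC (4.31 and 4.34) and Ent-Pro (4.35 and 4.23). It read 5.24 and 5.47 in Rbpj and 5.71 and 6.14 in DBZ Sec-Pro, at least 1.96-fold above Ent-Pro (measured log2 difference 1.35, adjusted p = 0.00053), and 4.58 and 4.82 in ENT. Every Sec-Pro array lay above every other array. St6galnac4, which acts on sialylated core 1, read 6.28, 5.52, 6.57 and 6.44 in Sec-Pro against 5.28 and 5.44 in Ent-Pro (0.84, adjusted p = 0.014). That call was lost without Ent-Pro replicate 1 (0.76, adjusted p = 0.12) or 2 (0.93, adjusted p = 0.071) and with the mean of both probe sets (0.44, adjusted p = 0.096). St3gal2 read 5.06 and 4.87 in Ent-Pro and 5.92 and 5.77 in ENT (0.87, lost without Ent-Pro replicate 2 at adjusted p = 0.092 or ENT replicate 1 at 0.077).

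St3gal3 and St6galnac2 ran the other way and were highest in stem cells. St3gal3 read 8.26 and 8.15 in ISC and 6.60 to 7.56 on the other 8 arrays, and fell by 1.19 to Sec-Pro (adjusted p = 0.00079) and by 0.92 to Ent-Pro (adjusted p = 0.012), with 0.11 and -0.13 from a dim second probe set. The Ent-Pro call was lost without either ISC array (-0.86 and -0.97, adjusted p = 0.07 and 0.055) or either Ent-Pro array (-0.92, adjusted p = 0.065 and 0.067). St6galnac2, which makes the sialyl-6-T and related O-glycan caps, read 10.61 and 10.35 in ISC, 8.96 and 9.63 in the Rbpj group, 10.11 and 10.07 in the DBZ group, 9.29 and 9.23 in Ent-Pro and on average 8.96 in ENT. It fell by 1.23 from ISC to Ent-Pro (adjusted p = 0.0027) and by 0.79 to Sec-Pro, the latter lost without ISC replicate 1 (-0.66, adjusted p = 0.060). St3gal5, the ganglioside GM3 synthase, fell by 0.40 below Ent-Pro (6.50 and 6.45) in Sec-Pro (5.90 to 6.15), a call lost without either Ent-Pro array (-0.38 and -0.43, adjusted p = 0.18 and 0.12) or either DBZ array (-0.41 and -0.40, adjusted p = 0.051 and 0.061). It was also below ISC by 0.45 (lost without ISC replicate 2, -0.42, adjusted p = 0.058). St6galnac5, which overlaps Pigk, lay below ISC in Sec-Pro (measured -0.32, with Rbpj Sec-Pro near background), a call lost without either ISC array (0.074 and 0.11) or DBZ replicate 2 (0.055).

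St8sia4, a polysialyltransferase, was uneven within groups and passed in none of the 5 comparisons. It read 7.70 and 4.71 in the Rbpj group, 5.37 and 6.95 in the DBZ group, 4.90 and 4.44 in Ent-Pro, 4.57 and 6.04 in ENT and 4.15 and 4.35 in ISC. The arrays with the higher value of each Sec-Pro pair were also those with the higher mean of leukocyte markers (8.48 and 8.01, given above). The 2 ENT arrays, apart in St8sia4, had like leukocyte means (7.62 and 7.65). The part of leukocytes in St8sia4 was not tested.

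Of 7 fucosyltransferases, Fut8, the core fucosyltransferase of N-glycans, was the 1 that changed in either comparison with ISC or from Ent-Pro to ENT. Among all genes, 18.0% were higher in Sec-Pro and 12.1% in Ent-Pro than in ISC, and 20.2% were lower in ENT than in Ent-Pro. Fut8 read 10.11 and 10.07 in ISC, 10.72 to 11.37 in Sec-Pro, 10.88 and 10.92 in Ent-Pro and 9.88 and 10.32 in ENT, so both crypt progenitor groups lay above ISC and ENT. The rise was 1.90-fold in Sec-Pro (adjusted p = 0.00091) and 1.75-fold in Ent-Pro (adjusted p = 0.0079, lost without ISC replicate 2 at 0.052 or Ent-Pro replicate 2 at 0.053), followed by a fall of -0.80 to ENT (adjusted p = 0.0049). Fut2, which makes α1,2-fucosylated glycans of the gut surface, read 5.07 and 5.29 in ISC, 5.93 and 5.26 in the Rbpj group, 5.16 and 5.22 in the DBZ group, 5.50 and 5.59 in Ent-Pro and 5.98 and 5.89 in ENT, and passed in none of the 5. Fut10 was lower by 0.39 in Sec-Pro than in Ent-Pro (adjusted p = 0.035), at levels of 4.47 to 5.15, and lost its call without either ISC array (0.051), Rbpj replicate 2 (0.052), DBZ replicate 2 (0.083) or either Ent-Pro array (0.17 and 0.18).

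Of 7 enzymes of N-glycan branching, 0 passed limma's test between Sec-Pro and Ent-Pro (median -0.19), and 1 had an unadjusted p under 0.05. Among all genes, 9.27% passed as higher and 14.7% as lower there. Mgat2, which commits N-glycans to the complex type, read 8.75 and 8.93 in ISC and 9.89 to 10.35 on the other 8 arrays. It was 2.57-fold higher in Sec-Pro (adjusted p = 7.0e-05) and 2.31-fold higher in Ent-Pro (adjusted p = 0.00083) than in ISC. Mgat3, which adds the bisecting N-acetylglucosamine, read 5.52 and 4.99 in Ent-Pro and 6.59 and 6.63 in ENT (2.56-fold, adjusted p = 0.0014), with the other arrays between 5.17 and 5.82.

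Mgat4c read 4.18 and 5.03 in ISC, 7.16 and 5.32 in the Rbpj group, 7.03 and 7.21 in the DBZ group, 6.14 and 7.01 in Ent-Pro and 8.10 and 9.38 in ENT. Values of ISC, Ent-Pro and ENT did not overlap and rose in that order, but arrays of a group differed by up to 1.84. The step from Ent-Pro to ENT (2.16, SE 0.62, adjusted p = 0.022) was lost without Ent-Pro replicate 1 (1.73, adjusted p = 0.13) or ENT replicate 2 (1.52, adjusted p = 0.15). That from ISC to Ent-Pro (1.97, adjusted p = 0.046) was lost without either array of these groups (1.54 to 2.41, adjusted p = 0.075 to 0.24) or either DBZ array (adjusted p = 0.069). The difference between Sec-Pro and ISC (2.08) was lost without ISC replicate 1 (1.65, adjusted p = 0.12). Mgat1, which starts the conversion to complex chains, was 1.60-fold higher in ENT than in Ent-Pro (lost without Ent-Pro replicate 2 at 0.10 or ENT replicate 1 at 0.086). Its fall of 0.50 from ISC to Sec-Pro was lost without either ISC array (0.17 and 0.06), Rbpj replicate 2 (0.051) or DBZ replicate 1 (0.062).

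Of 11 sulfotransferases, Chst15 and Chst4 had the 2 largest differences among all enzyme genes above Ent-Pro in Sec-Pro, while the chondroitin sulfotransferases Chst3, Chst7 and Chst11 were lower there. Chst15, which makes the disulfated chondroitin sulfate E, read 6.22 and 7.14 in the Rbpj group, 8.52 and 8.82 in the DBZ group, 5.43 and 5.09 in Ent-Pro, 4.90 and 4.79 in ENT and 6.69 and 6.77 in ISC. Sec-Pro exceeded Ent-Pro 5.33-fold (2.41, SE 0.23, adjusted p = 0.00025), with 2.09 from its second probe set, and Ent-Pro fell by 1.47 below ISC (adjusted p = 0.0044). Against ISC the pooled difference was 0.95, with 1.94 for DBZ Sec-Pro alone (adjusted p = 0.00068) and -0.05 for Rbpj Sec-Pro alone (adjusted p = 0.90), and its call was lost without ISC replicate 1 (0.91, adjusted p = 0.066) or 2 (0.98, adjusted p = 0.055).

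Chst4, a sulfotransferase of N-acetylglucosamine known for the L-selectin ligands of lymph node vessels, read 8.21 and 7.16 in the Rbpj group, 8.14 and 7.84 in the DBZ group, 5.78 and 5.86 in Ent-Pro, 6.93 and 6.52 in ENT and 5.46 and 5.65 in ISC. All 4 Sec-Pro arrays lay above the other 6, with a 4.06-fold difference from Ent-Pro (2.02, SE 0.26, adjusted p = 0.0013) and 4.86-fold from ISC (2.28, adjusted p = 0.00017). Its rise from Ent-Pro to ENT (0.91, adjusted p = 0.041) was lost without any 1 of those 4 arrays (0.70 to 1.11, adjusted p = 0.059 to 0.21), or without either ISC array (0.064) or either DBZ array (0.056). Chst5, the related enzyme described in mouse intestine, read 4.06 to 4.55 and lay near background in all 5 groups.

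Chst3, Chst7 and Chst11 were dim, and 2 of them overlapped between the groups. Chst7 read 4.43 and 4.40 in the Rbpj group, 5.41 and 4.92 in the DBZ group and 5.72 and 5.37 in Ent-Pro. Chst3 read 4.65 and 4.72 in Rbpj, 5.33 and 5.50 in DBZ and 5.68 and 5.38 in Ent-Pro, and Chst11 read 4.18 and 4.25, 4.90 and 4.76, and 5.22 and 5.00. Low values were thus those of Rbpj Sec-Pro. With DBZ Sec-Pro alone, differences from Ent-Pro were -0.38, -0.11 and -0.28 and did not pass (adjusted p = 0.30, 0.63 and 0.37). Without Ent-Pro replicate 1 all 3 calls were lost (-0.58, -0.33 and -0.48, adjusted p = 0.22, 0.23 and 0.24). Chst7 overlaps the gene Slc9a7. It also lost its call without Ent-Pro replicate 2 (0.070) or DBZ replicate 2 (0.065), Chst3 without DBZ replicate 1 (0.058), and Chst11 without Ent-Pro replicate 2 (0.10), Rbpj replicate 1 (0.060) or either DBZ array (0.058 and 0.084). Chst11 and Chst7 lay near background in Rbpj Sec-Pro, so that this group alone was at least 1.37-fold and 1.85-fold below Ent-Pro and at least 1.64-fold and 1.78-fold below ISC, and the pooled differences of both are measured values and not bounds. Pooled Sec-Pro measured -0.85 against ISC for Chst11, -0.70 for Chst7 and -0.37 for Chst3, of which Chst7 was lost without ISC replicate 1 (-0.48, adjusted p = 0.18) or DBZ replicate 2 (0.051), and Chst3 without either ISC array (0.12 and 0.13), Rbpj replicate 1 (0.06) or DBZ replicate 1 (0.085). Chst2, near background in all groups but ISC, was at least 1.14-fold higher in ISC than in Sec-Pro (lost without ISC replicate 1, -0.50, adjusted p = 0.055).

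**Figure D4:**
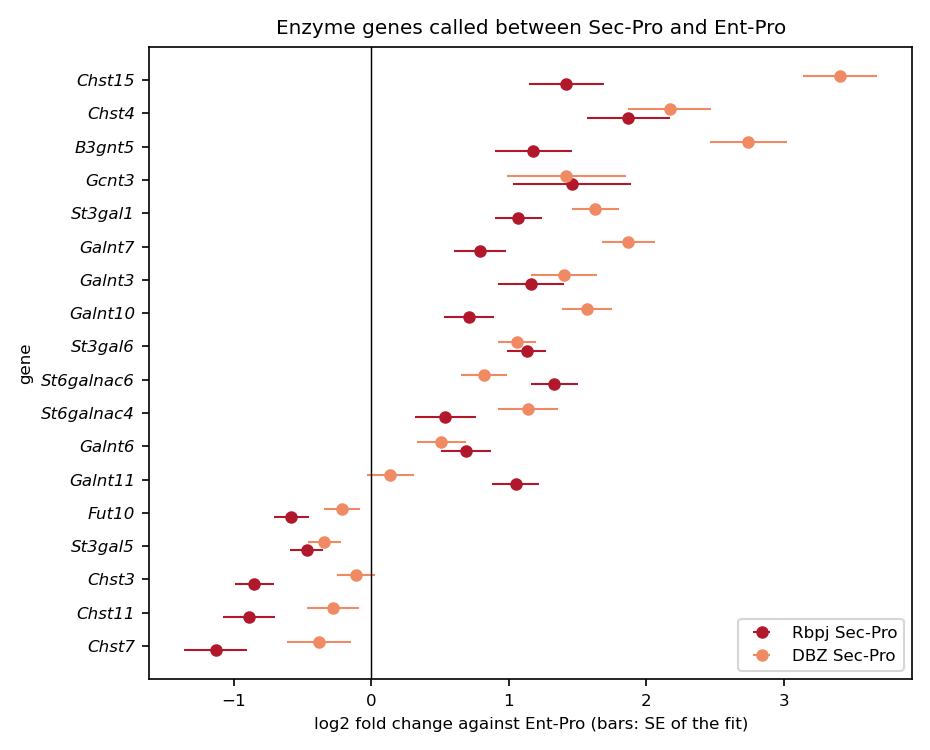
For the 18 enzyme genes called between Sec-Pro and Ent-Pro, points give the log2 fold change of each Sec-Pro group alone against Ent-Pro, with the SE of the fit. Both groups share the Ent-Pro arrays; DBZ exceeds Rbpj for Chst15, B3gnt5, Galnt7 and Galnt10, and Galnt11 and Chst3 lie near 0 in DBZ.

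Promoter sequences are shown for the 3 genes with the largest differences between the branches and for St3gal4, the gene with the largest change from ISC. E-boxes are the letters that basic helix-loop-helix factors, the family of Atoh1, are known to recognise. Each is the RefSeq window of 250 bases before to 50 after a gene's start in GRCm38.p6, on the gene's strand, with matches to the E-box letters CAGCTG or CAGATG on either strand in capitals. The windows are chr7:132317179-132317478 on the minus strand for Chst15 (the first of 2 listed), chr8:110039285-110039584 on the minus strand for Chst4, chr16:19759984-19760283 on the plus strand for B3gnt5 and chr9:35116815-35117114 on the minus strand for St3gal4.
Chst15: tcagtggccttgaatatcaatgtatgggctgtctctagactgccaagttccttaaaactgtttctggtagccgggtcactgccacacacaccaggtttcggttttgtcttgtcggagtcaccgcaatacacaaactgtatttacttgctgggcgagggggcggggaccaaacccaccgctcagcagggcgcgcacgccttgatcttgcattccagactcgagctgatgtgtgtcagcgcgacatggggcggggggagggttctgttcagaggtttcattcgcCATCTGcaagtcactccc
Chst4: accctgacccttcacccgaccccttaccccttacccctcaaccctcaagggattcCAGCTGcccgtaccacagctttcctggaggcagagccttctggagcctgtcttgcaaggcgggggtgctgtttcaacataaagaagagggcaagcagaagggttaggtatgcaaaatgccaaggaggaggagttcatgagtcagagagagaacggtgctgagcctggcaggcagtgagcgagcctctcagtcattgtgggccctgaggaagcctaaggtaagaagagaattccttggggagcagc
B3gnt5: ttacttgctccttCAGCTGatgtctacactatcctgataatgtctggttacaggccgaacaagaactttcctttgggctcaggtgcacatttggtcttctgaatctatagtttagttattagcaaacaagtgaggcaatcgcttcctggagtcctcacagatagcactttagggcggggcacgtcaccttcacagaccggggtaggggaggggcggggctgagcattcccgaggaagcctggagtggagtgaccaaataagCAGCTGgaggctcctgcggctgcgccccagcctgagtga
St3gal4: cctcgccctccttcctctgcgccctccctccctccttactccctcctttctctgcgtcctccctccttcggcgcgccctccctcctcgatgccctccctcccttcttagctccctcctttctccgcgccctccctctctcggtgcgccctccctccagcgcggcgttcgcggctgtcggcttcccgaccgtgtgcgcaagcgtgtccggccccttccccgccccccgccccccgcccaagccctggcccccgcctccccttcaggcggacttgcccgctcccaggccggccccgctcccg
Chst4 held 1 CAGCTG, 195 bases upstream of the start, and B3gnt5 held 2, 237 bases upstream and 11 bases downstream. Chst15 held 1 match to CAGATG, 32 bases downstream, and St3gal4 none of either. Of the 13 genes above Ent-Pro in Sec-Pro, 11 had a promoter in the table, of which 2 held CAGCTG and 2 CAGATG in the first window listed. Of all 32851 promoters, 16.3% held CAGCTG and 17.2% CAGATG. A match is a run of letters, and binding was not measured.

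Secretory progenitors obtained in the 2 ways differed from each other in 15 of the enzyme genes. DBZ Sec-Pro was higher in 10 (13.7%, against 9.34% of all genes) and lower in 5 (6.85%, against 7.08%), with a median of 0.13 (0.06 over all genes). Chst15 differed most, being 3.97-fold higher in DBZ (1.99, SE 0.27, adjusted p = 0.0045), followed by B3gnt5 (2.93-fold, adjusted p = 0.011), Galnt7 (2.12-fold, adjusted p = 0.0099), Galnt10 (1.82-fold, adjusted p = 0.016), St6galnac2 (1.73-fold, adjusted p = 0.032), Mgat4b (1.71-fold, adjusted p = 0.049) and Galnt4 (1.68-fold, adjusted p = 0.0075). Galnt11 was 1.89-fold higher in Rbpj (adjusted p = 0.011), as was B3gnt3, 1.71-fold (8.32 and 7.96 against 7.28 and 7.45, adjusted p = 0.020). The call of Chst15 was kept without each array, and the other 14 lost theirs without at least 1. B3gnt5 (1.32, adjusted p = 0.082), Galnt7 (1.00, adjusted p = 0.075), Galnt4 (0.75, adjusted p = 0.051) and Galnt11 (-0.78, adjusted p = 0.081) lost it without DBZ replicate 2, and Galnt10 without that array (0.60, adjusted p = 0.089) or Rbpj replicate 1 (0.81, adjusted p = 0.061). St6galnac2 lost it without Rbpj replicate 1 (0.46, adjusted p = 0.10), either DBZ array (0.10 and 0.13) or either Ent-Pro array (0.055), and Mgat4b without each array but Rbpj replicate 2 (0.42 to 0.82, adjusted p = 0.054 to 0.20). B3gnt3 lost it without Rbpj replicate 1 (-0.59, adjusted p = 0.081) or either DBZ array (-0.69 and -0.86, adjusted p = 0.080 and 0.074). Fitted on these 4 arrays alone, limma called 0 of the 73 in either direction (Chst15 at adjusted p = 0.073), with 18 higher and 7 lower at an unadjusted p under 0.05. With the mean of the probe sets, limma lost the calls of St6galnac2 (0.36, adjusted p = 0.074) and Galnt10 (0.60, adjusted p = 0.067). BioB read 9.73 to 10.51 in Rbpj and 5.91 to 7.82 in DBZ, and its part was not tested.

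Genes that supply or complete these pathways were read from lists. The core 1 step lies outside the symbol rule, and its synthase and chaperone were both higher in Sec-Pro. C1galt1c1, the chaperone without which core 1 synthase is not made in active form, read 9.35 and 9.22 in ISC, 11.92 and 11.96 in the Rbpj group, 12.49 and 12.71 in the DBZ group, 10.70 and 10.55 in Ent-Pro and 10.58 and 10.89 in ENT. Sec-Pro was 3.13-fold above Ent-Pro (adjusted p = 6.9e-05) and 7.92-fold above ISC (adjusted p = 4.3e-06), with no overlap. C1galt1, core 1 synthase itself, was 2.12-fold higher in Sec-Pro than in Ent-Pro (adjusted p = 0.0084). Of the 34 transferases measured outside the rule, 3 were up and 2 down in that comparison (9.27% and 14.7% of all genes), and 5 up and 5 down against ISC (18.0% and 27.2% of all genes). Ugcg, which makes glucosylceramide, was 2.99-fold higher in Sec-Pro (adjusted p = 0.00030) and 2.57-fold in Ent-Pro (adjusted p = 0.0032) than in ISC, and the ganglioside enzyme B4galnt1 was lower in both by 2.49-fold and 1.95-fold. From Ent-Pro to ENT 9 rose and 4 fell (18.5% and 20.2% of all genes), led upward by the heparan sulfate polymerase Ext1 (3.15-fold) and downward by B3galnt2 (3.02-fold).

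Supply of nucleotide sugars and of the sulfate donor was also read. Of 32 genes measured, 12 were up and 1 down from Ent-Pro to Sec-Pro (9.27% and 14.7% of all genes; median 0.38), and 19 and 4 from ISC to Sec-Pro (18.0% and 27.2% of all genes; median 0.73). From ISC to Ent-Pro 13 rose and 3 fell (12.1% and 13.5% of all genes), and from Ent-Pro to ENT 12 rose and 7 fell (18.5% and 20.2%). Gfpt1, the entry enzyme of hexosamine synthesis, was 2.22-fold higher in Sec-Pro than in Ent-Pro (adjusted p = 0.012), Gfus, of GDP-fucose synthesis, 1.90-fold and Galk2, a GalNAc kinase, 1.89-fold. Papss2, which makes the sulfate donor, read 8.23 and 8.18 in ISC, 13.12 and 13.67 in the Rbpj group, 11.11 and 9.91 in the DBZ group, 11.86 and 10.91 in Ent-Pro and 13.66 and 13.77 in ENT. It was 13.5-fold higher in Sec-Pro and 9.06-fold higher in Ent-Pro than in ISC, and 7.37-fold lower in DBZ than in Rbpj Sec-Pro (adjusted p = 0.0049). The sulfate carrier Slc26a2 rose 3.44-fold and 3.62-fold from ISC in Sec-Pro and Ent-Pro. Gne, which starts sialic acid synthesis, was 2.57-fold higher in DBZ than in Rbpj Sec-Pro (adjusted p = 0.0070). Pmm1, a phosphomannomutase, was 17.5-fold higher in ENT (11.19 and 11.17) than in Ent-Pro (7.01 and 7.09; adjusted p = 6.4e-05).

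**Figure D5:**
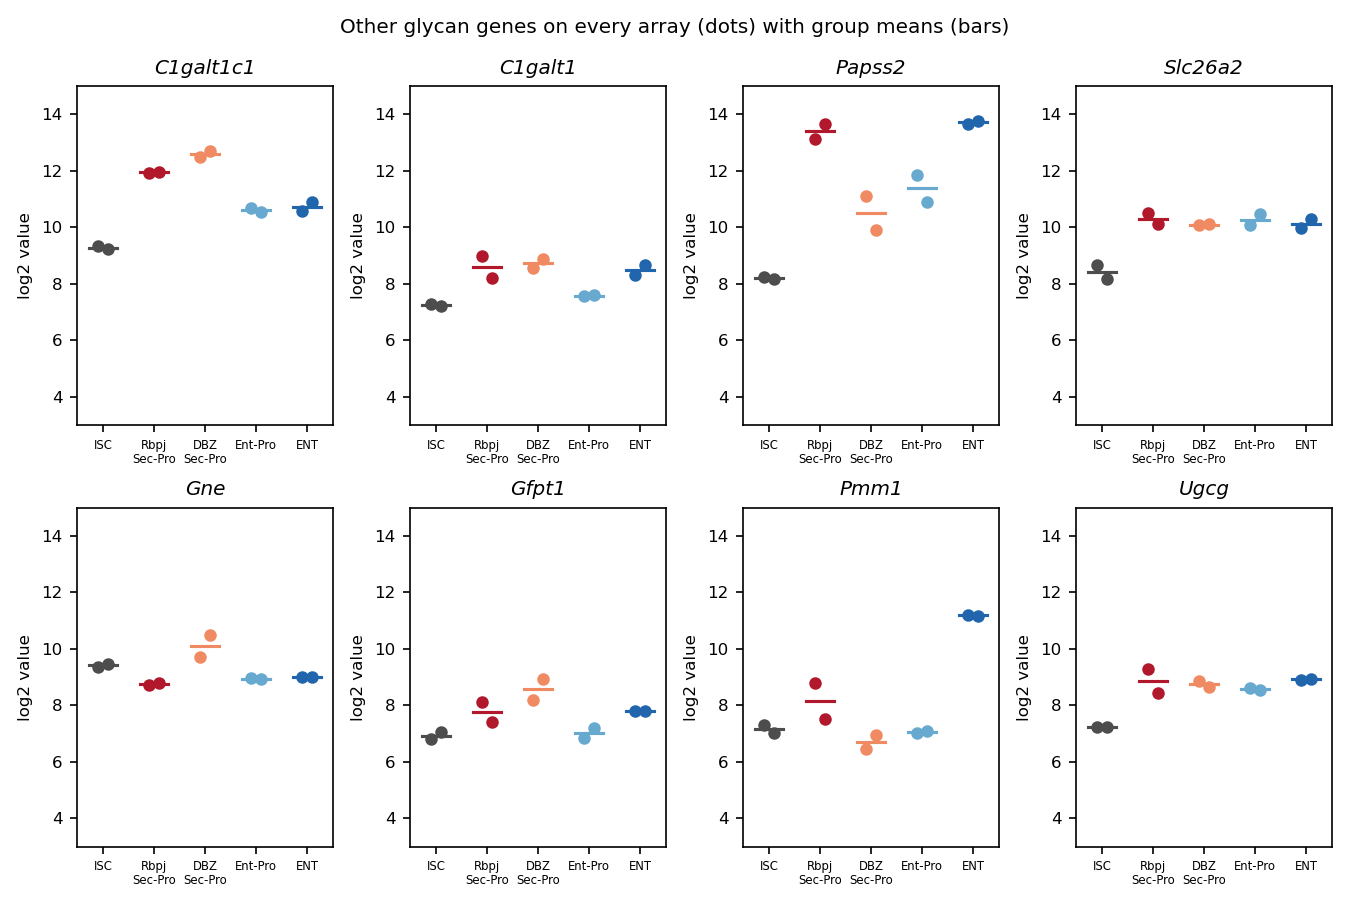
Each panel gives the log2 value of 1 gene (vertical axis) on the 2 arrays of each group (dots) with the group mean (bar). C1galt1c1 is highest in both Sec-Pro groups, Papss2 lies lower in DBZ than in Rbpj Sec-Pro, and Pmm1 stands apart in ENT.

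Mucins and other mucus proteins were read as well. Of 14 mucin and mucus genes measured, 7 lay above and 1 below Ent-Pro in Sec-Pro (9.27% and 14.7% of all genes). The largest rises were those of Clca1, Zg16 and Tff3, which are mucus genes and not mucins, so the count does not speak for mucins alone. Muc2, the goblet cell mucin, was not analysed here. Muc3, a membrane mucin of enterocytes, read 11.84 and 11.67 in Ent-Pro and 14.09 and 13.94 in ENT (4.79-fold, adjusted p = 9.5e-05), and Muc4, another membrane mucin, lay 2.48-fold below Ent-Pro in Sec-Pro (adjusted p = 0.0075). Of 7 genes of N-glycan trimming, 1 passed between Sec-Pro and Ent-Pro, lower in Sec-Pro (Man1b1, -0.65, against 14.7% of all genes lower). Man1a, a Golgi mannosidase, was 2.95-fold and 2.70-fold higher in Sec-Pro and Ent-Pro than in ISC (adjusted p = 1.8e-05 and 0.00019).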

How the data were processed

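The deposited table holds log2 signals of 22690 probe sets on 10 arrays, with array medians of 6.83 to 6.98. RMA and MAS5 are named in the submitters' processing notes without saying which made the values, which were taken as they stand. Probe sets were named from the platform annotation (20393 with 1 gene symbol, 691 with several, 1606 unnamed here). The 64 control probe sets and those with several symbols were left out, leaving 12393 genes. The 73 enzyme genes had 116 probe sets, and 31 had more than 1. All 10 arrays entered 1 model of 5 group means in limma 3.58.1 (R 4.3.3; lmFit and eBayes, 5 residual and 3.75 prior degrees of freedom). P-values were adjusted by Benjamini-Hochberg over all genes and called under 0.05. Sec-Pro is the mean of both Sec-Pro groups. The fit was tested on simulated data.

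The genes, lists and comparisons were chosen with earlier results of these data known, and the background bound after the values had been seen. Where a compared group lay near background, its fold is given as at least N-fold, that group set to the absent control plus 1, and any log2 difference beside it is the measured one. Every enzyme gene could be named; values, fold and adjusted p went to those called, in order of size, and up to 3 per direction of each other list. The number of arrays limits precision. Alternatives were centring, cyclic loess, a filter on dim genes, the mean of a gene's probe sets, the replicate block, fits of the compared groups alone, each Sec-Pro group alone and each array left out. No scan dates were in the files used here.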

Additional observations from a re-analysis of the deposited data

Results flagged for a closer look

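The effect against Ent-Pro differed between the ways of blocking Notch for 15 enzyme genes, by limma's test of DBZ minus Rbpj Sec-Pro itself (log2). It was larger or less negative in DBZ for Chst15 (1.99), B3gnt5 (1.55), Galnt7 (1.08), Galnt10 (0.86), St6galnac2 (0.79), Mgat4b (0.78), Galnt4 (0.75), Chst3 (0.73), St6galnac3 (0.67) and St6galnac5 (0.43), and smaller for Galnt11 (-0.92), B3gnt3 (-0.77), B3gnt2 (-0.51), Chst1 (-0.44) and Chst12 (-0.43). Of these measured differences, that of St6galnac3 has no fold, since both groups lay near background. With 1 group near background, St6galnac5 was at least 1.11-fold higher in DBZ, and Chst1 and Chst12 at least 1.25-fold and 1.20-fold lower. The 14 other than Chst15 lost the call without at least 1 array, with adjusted p of 0.051 to 0.20.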

How the results depend on the processing

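Of the 105 calls of single enzyme genes, centring the arrays kept 100, cyclic loess 94, the replicate block 99, the mean of the probe sets 89 and fits of the compared groups alone 82, all with their sign. Without 1 array, 896 of 1050 refits kept the call and 154 lost it, with 0 reversals. Those refits also left out arrays of groups not compared, so their share is not that of calls kept throughout. Counted by call, losses without at least 1 array were 9 of 18 for Sec-Pro against Ent-Pro and 14 of 35 against ISC. They were 5 of 16 for Ent-Pro against ISC, 7 of 21 for ENT against Ent-Pro and 14 of 15 for DBZ against Rbpj. With DBZ Sec-Pro alone, 38 Sec-Pro calls were kept and 15 lost. With Rbpj Sec-Pro alone, 46 were kept, 6 lost and 1 reversed (Chst15 against ISC, -0.05). Where a group is left with 1 array, that array is assumed to vary like the others.

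Only genes above the median level (22 of the 73) gave fewer calls because fewer genes were tested: 6 higher and 1 lower for Sec-Pro against Ent-Pro, 15 and 3 against ISC, 2 lower for Ent-Pro against ISC, 9 higher for ENT against Ent-Pro, 6 and 3 for DBZ against Rbpj, and 21 for any difference. Those below Ent-Pro in Sec-Pro numbered 5, but 8 after centring, 2 after cyclic loess, 3 with the compared groups alone, 1 with DBZ alone and 10 with Rbpj alone; the cause was not tested. Those lower than ISC numbered 11, but 5 after cyclic loess and 5 with DBZ alone. The mean of the probe sets left 2 lower in ENT than in Ent-Pro. The compared groups alone gave 0 and 0 for DBZ against Rbpj, with fewer arrays in the fit.

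With each array left out, counts ranged from 9 to 15 higher and 0 to 5 lower for Sec-Pro against Ent-Pro, 20 to 26 and 6 to 13 against ISC, 9 to 13 and 2 to 4 for Ent-Pro against ISC, 13 to 21 and 2 to 5 for ENT against Ent-Pro, 1 to 12 and 0 to 5 for DBZ against Rbpj, and 39 to 46 for any difference. By limma, 0 were lower for DBZ against Rbpj without DBZ replicate 2 (7 at an unadjusted p under 0.05), and 0 for Sec-Pro against Ent-Pro without Ent-Pro replicate 1 (2 unadjusted). With the replicate block the counts were 13 and 5, 24 and 11, 11 and 3, 17 and 4, 10 and 4, and 44. Deviations of same-numbered arrays of different groups correlated between -0.192 and 0.174. Whether these arrays share mice or a processing day is not given, and such correlations cannot settle it. The block moved no count by over 1.5 times.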
